A study of Mus musculus with 2 samples.

Results

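The 9 genes described here, of 18786 in the deposited table, were 6 genes that respond to interferon (Isg15, Bst2, Irf7, Ifit3, Ifi27l2a and Rtp4) and 3 genes of the interferon-induced transmembrane family (Ifitm1, Ifitm2 and Ifitm3). They were taken by name, in all cells in which mitochondrial genes made up at most 10% of the UMIs. A UMI is a molecular tag by which copies of 1 RNA molecule are counted once. The study sorted innate lymphoid cells, lymphocytes that lack a rearranged antigen receptor, from skin taken at postnatal day 1 and postnatal day 14 from C57/BL6 mice. Per the labels, skin was digested with collagenase A, CD45+ Lin- Thy1.2+ cells were sorted, and 1 library per day was made with a 10x Genomics 5′ single-cell kit. No allele or treatment is named for either day, and the sources used here do not give the number of animals pooled in a library.

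The pooled table marks each cell name with 1 of 2 suffixes, and the cells of each suffix are called set 1 and set 2. No label ties a suffix to a day, so the sets are compared as sets and the days are not compared. Set 1 held 1441 kept cells with a median of 10683 UMIs, and set 2 held 3508 with a median of 4849. The intervals given below are 95% intervals that cover counting error only. With 1 library per set there was no replicate spread and no test between the sets. The sorted population carried innate lymphoid genes: Gata3, the transcription factor of group 2 innate lymphoid cells, had a UMI in 70.6% of cells of set 1 and 71.5% of cells of set 2 after every cell was thinned to 4108 UMIs. Il1rl1 and Klrg1, also genes of that cell type, were rarer. Without thinning Il1rl1 was in 115 of 1441 cells of set 1 and 119 of 3508 of set 2, and Klrg1 in 67 and 57. Genes of other skin cells were also counted. The summed fibroblast list was at 89.1 UMIs per 1000000 UMIs (CPM) in set 1 against 5.55 CPM in set 2. The summed list of T cell genes was at 806 and 1109 CPM, and Cd3e was in 73 and 44 cells. All 10 cycling genes were at least 1.5-fold lower in set 2, as were 22.8% of the 9495 genes with at least 100 UMIs.

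Interferons bind receptors on the cell surface and activate Janus kinases, which lead to a complex with Stat2 and Irf9 that binds the interferon-stimulated response element (ISRE) in front of target genes. Type II interferon acts mainly through the gamma-activated site (GAS). Isg15 is a ubiquitin-like protein that is coupled to other proteins, Bst2 (tetherin) holds budding virus particles at the cell surface, Irf7 is a transcription factor that amplifies interferon production, and Ifit3 belongs to a family that binds viral RNA. Ifitm proteins are small membrane proteins that hinder the fusion of enveloped viruses with the cell.

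The response element itself is shown for the members whose promoter window held it. RefSeq windows of 250 bases before the gene start (GRCm38.p6) were found for 7 of the 9 members. Both strands were searched for GAAA, any 2 bases and GAAA as the ISRE, which reads TTTC, any 2 bases and TTTC on the other strand, and for TTCNNNGAA as the GAS, with overlapping matches counted. The sequences run 5′ to 3′ along the gene's strand, and capitals mark the ISRE matches. The Isg15 window (chr4:156200819-156201068, minus strand) held 3 overlapping matches, which began 78, 72 and 66 bases before the start. The Bst2 window (chr8:71537473-71537722, minus strand) held 2, at 130 and 124 bases. The Ifit3 window (chr19:34583279-34583528, plus strand) held 2, at 156 and 122 bases, both on the opposite strand. The Ifitm2 window (chr7:140955962-140956211, minus strand) held 1, at 46 bases.
Isg15: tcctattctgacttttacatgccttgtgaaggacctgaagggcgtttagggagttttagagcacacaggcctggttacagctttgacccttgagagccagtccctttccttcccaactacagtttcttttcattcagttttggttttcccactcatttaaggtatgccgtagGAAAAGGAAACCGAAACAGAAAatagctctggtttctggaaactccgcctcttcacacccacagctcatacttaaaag
Bst2: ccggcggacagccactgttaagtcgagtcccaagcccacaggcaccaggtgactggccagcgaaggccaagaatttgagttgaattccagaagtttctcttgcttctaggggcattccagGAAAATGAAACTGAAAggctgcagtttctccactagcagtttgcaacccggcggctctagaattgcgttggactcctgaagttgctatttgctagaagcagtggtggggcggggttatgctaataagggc
Ifit3: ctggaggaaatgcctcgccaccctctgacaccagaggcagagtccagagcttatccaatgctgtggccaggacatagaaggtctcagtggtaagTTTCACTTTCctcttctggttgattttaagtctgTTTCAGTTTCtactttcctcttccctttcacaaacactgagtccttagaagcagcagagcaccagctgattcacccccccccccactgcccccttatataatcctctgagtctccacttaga
Ifitm2: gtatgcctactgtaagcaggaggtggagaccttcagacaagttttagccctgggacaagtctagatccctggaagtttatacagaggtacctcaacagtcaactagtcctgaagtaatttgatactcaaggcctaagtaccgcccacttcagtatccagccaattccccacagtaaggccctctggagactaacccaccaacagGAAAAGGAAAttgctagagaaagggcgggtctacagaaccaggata
The letters were not in the windows of Irf7 (chr7:141266425-141266674, minus strand), Ifitm1 (chr7:140967826-140968075, plus strand) and Ifitm3 (chr7:141010745-141010994, minus strand). The Ifitm1 window lies inside the gene span given below, so the bases before that span were not searched. Those of Irf7, Ifitm2 and Ifitm3 overlap their spans in part. By this count 3 of 4 interferon response members and 1 of 3 Ifitm members had an ISRE match, beside 2.98% of all 32851 windows of the same length. Of the genes with a window in 2 wider lists, 15 of 44 genes induced by type I interferon and 11 of 14 genes known mainly for induction by interferon gamma held a match. A GAS match lay in the Bst2 window and in 7.02% of all windows.

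Among the interferon response members, Bst2 and Isg15 were the most counted, and both were lower in set 2. UMIs of a 5′ kit are not scaled to gene length and capture per gene was not measured, so levels are compared between sets and not between genes. Isg15 (chr4:156199424-156200818, minus strand) was counted at 73.7 CPM (69.6 to 78.0) in set 1 against 46.3 CPM (43.2 to 49.6) in set 2, a ratio of 1.59 (1.46 to 1.74). Bst2 (chr8:71534255-71537456, minus strand) was counted at 78.1 CPM and 46.6 CPM, a ratio of 1.67 (1.53 to 1.83). The intervals of the 2 sets did not overlap for either gene. Irf7 (chr7:141262706-141266481, minus strand), the transcription factor among the members, was counted at 10.5 CPM in set 1 against 7.27 CPM in set 2, a ratio of 1.44 (1.14 to 1.82).

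The other interferon response members were rare. Ifi27l2a (chr12:103442167-103443680, minus strand), a small hydrophobic protein strongly induced by type I interferon, was counted at 7.21 CPM in set 1 against 5.16 CPM in set 2, a ratio of 1.40 (1.06 to 1.85). That direction did not hold in every subset: in cells with Xist and no Y-linked UMI its level was 3.96 CPM in set 1 against 5.2 CPM in set 2. Rtp4 (chr16:23520291-23614222, plus strand), a receptor transporter protein and an interferon-stimulated gene, had 64 UMIs in set 1 against 11 in set 2, a ratio of 6.35 (3.32 to 13.4). Ifit3 (chr19:34583531-34588731, plus strand) had 26 UMIs in 9 cells of set 1 and 2 UMIs in 1 cell of set 2, a ratio of 14.2 (3.55 to 123). How reads shared between Ifit3 and its near copy Ifit3b were counted is not given in the sources used here.

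All 3 Ifitm members were lower in set 2, by more than any interferon response member with 100 or more UMIs. The genes lie within 55934 bases of chromosome 7: Ifitm2 at chr7:140954837-140955987, Ifitm1 at chr7:140967221-140969825 and Ifitm3 at chr7:141009586-141010770. Ifitm2 was counted at 49.0 CPM in set 1 against 7.38 CPM in set 2, a ratio of 6.64 (5.52 to 8.04). Ifitm3 was counted at 14.4 CPM and 1.55 CPM, a ratio of 9.28 (6.26 to 14.3). Ifitm1 had 124 UMIs in 30 cells of set 1, of which 36 were in 1 cell, and 2 UMIs in set 2. The ratio for Ifitm1 was 67.7 with a counting interval of 18.3 to 565. Ifitm2 and Ifitm3 are near copies of each other, and how reads shared between them were counted was not stated in the sources used here. Of the other family members in the table, Ifitm6 and Ifitm7 had no UMI, Ifitm5 had 2 and 1, and Ifitm10 had 21 and 18.

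**Figure D1:**
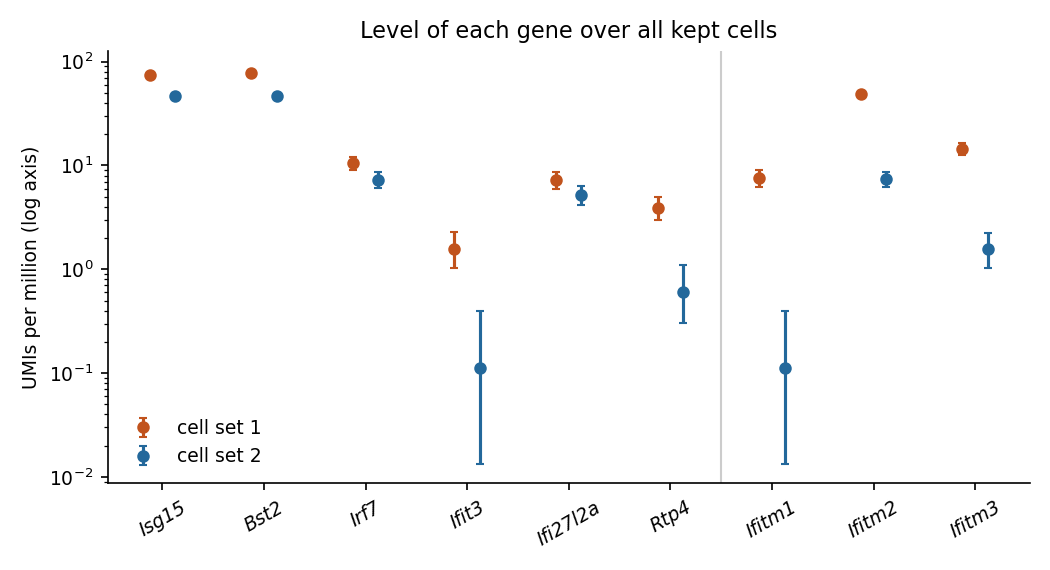
Level of each of the 9 genes over all kept cells in set 1 (orange) and set 2 (blue), in CPM on a log axis, with 95% counting intervals as bars and the Ifitm genes right of the vertical line. Every gene lies lower in set 2, from a ratio of 1.40 for Ifi27l2a to 67.7 for Ifitm1.

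A gene was called higher or lower in a set at a ratio of at least 1.5, among genes with at least 100 UMIs over both sets. Of the 7 members that reached 100 UMIs, 5 were called lower in set 2 (Isg15, Bst2, Ifitm1, Ifitm2 and Ifitm3), 0 were called higher, and Irf7 and Ifi27l2a were neither. The same call held for 22.8% of the 9495 genes that reached the minimum, and 12.7% were called higher. Ifitm1 and Ifitm3 reached it through set 1, and Ifit3 and Rtp4 did not reach it. At a ratio of at least 2 the 3 Ifitm members were still called, against 8.91% of all genes, with 6.23% called higher. On the log2 (CPM + 1) scale the median difference, set 2 minus set 1, was -0.70 over the 6 interferon response members and -2.59 over the 3 Ifitm members. It was -0.13 over the 12026 genes with at least 20 UMIs. Scaling with TMM factors, which assumes that most genes do not differ, moved the median of all genes to 0.01 and that of the interferon response members to -0.54. On that scale 15.9% of genes were called lower and 17.4% higher, 4 members were still called lower, and Isg15 was not, at a ratio of 1.43.

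The share of cells with a UMI followed depth as well as level. Bst2 had a UMI in 40.0% of cells of set 1 and 19.2% of set 2, but in 21.2% and 15.9% once every cell was thinned to 4108 UMIs. Isg15 went from 25.2% and 14.4% of cells to 14.4% and 12.6% after thinning. Thinning left 1378 cells in set 1 and 2334 in set 2, with 63 and 1174 shallower cells left out. For Isg15 most of the gap in the share of cells was gone at equal depth while the gap in level remained: thinned cells held a mean of 0.340 Isg15 UMIs in set 1 and 0.183 in set 2. The Ifitm shares stayed apart. Ifitm2 had a UMI in 8.93% of thinned cells of set 1 and 1.93% of set 2, and Ifitm3 in 5.15% and 0.428%. Ifitm1 was in 0.943% of thinned cells of set 1 and in 0 of 2334 in set 2, with an exact binomial upper bound of 0.158%. Irf7 was in 3.85% and 2.70%, Rtp4 in 1.02% and 0.214%, and Ifi27l2a in 1.23% and 1.63%.

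Other genes of the interferon pathway are given by role. Beside their calls stand the shares over all genes, 22.8% lower and 12.7% higher in set 2. All 5 receptor chains with at least 100 UMIs were called higher in set 2. Ifnar1, the signalling chain of the type I receptor, was counted at 81.8 CPM in set 1 against 220.0 CPM in set 2. Ifnar2, its ligand-binding partner, was at 36.1 and 59.0 CPM, and Ifngr2, of the type II receptor, at 75.3 and 135 CPM. Il10rb, shared by the interferon lambda and interleukin 10 family receptors, was at 15.4 and 28.5 CPM. Of the interferons themselves, Ifng had 75 UMIs in set 1 and 119 in set 2, called higher on the TMM scale, Ifnb1 had none and Ifnk had 0 and 3.

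Among 11 genes that carry or restrain the signal, 2 were lower in set 2, 1 was higher and 8 were neither. The called shares, 18.2% and 9.09%, were near the 22.8% and 12.7% of all genes. Stat2 was at 9.45 CPM in set 1 against 9.49 CPM in set 2, and Irf9 at 16.8 and 11.6 CPM. Neither passed the ratio of 1.5. The kinase Jak2 was called higher at 150 and 248 CPM, while the feedback inhibitor Socs3 was called lower at 76.9 and 28.0 CPM, as was the phosphatase Ptpn2 at 118 and 74.1 CPM. Another inhibitor, Socs1, was at 58.2 and 85.9 CPM, which is neither. On the TMM scale Socs1 was also called higher, at 1.64, and Ptpn2 was not called.

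Of the 8 interferon regulatory factors other than Irf7 and Irf9, 3 were higher in set 2, 1 was lower and 4 were neither. Over all genes 12.7% were higher and 22.8% lower. Irf4, a factor of lymphocyte differentiation, was at 5.09 CPM in set 1 against 26.5 CPM in set 2. Irf5 was at 6.06 and 26.6 CPM, and Irf8 at 14.0 and 31.0 CPM. Irf1, which drives many genes of the interferon gamma response, was called lower, at 93.1 and 57.3 CPM, but not on the TMM scale.

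Of 9 nucleic acid sensors and their adaptors, 2 were lower in set 2, 1 was higher and 6 were neither. At 22.2% and 11.1%, the called shares were near the 22.8% and 12.7% of all genes. The DNA sensor cGAS (Mb21d1) was at 26.3 CPM in set 1 against 12.1 CPM in set 2. The adaptor Myd88 was at 18.2 and 10.7 CPM and was also called lower. The kinase Tbk1 was at 49.8 and 34.0 CPM, which is neither, and the related Ikbke was called higher at 8.60 and 13.8 CPM. The genes that couple Isg15 to its targets showed no call: Uba7, its activating enzyme, was at 7.33 and 8.71 CPM, Herc6, its ligase, at 9.51 and 8.77 CPM, and Trim25 at 32.0 and 38.3 CPM.

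A wider list of genes induced by type I interferon, without the members, held 54 genes in the table. Of the 34 with at least 100 UMIs, 1 was lower in set 2, 8 were higher and 25 were neither, with a median log2 difference of -0.08 over the 42 with at least 20 UMIs. The called shares were 2.94% lower and 23.5% higher, beside 22.8% and 12.7% of all genes. Eif2ak2, the kinase PKR, was the gene called lower. The nuclear body proteins Sp110 and Sp100 were called higher, at 23.5 and 57.9 CPM and at 39.2 and 69.1 CPM. Ifi203, of the DNA-binding p200 family, was at 47.4 and 86.9 CPM, and the surface protein Ly6e at 738 and 1172 CPM. In a list of genes known mainly for induction by interferon gamma, 1 of 12 genes was lower (Gbp7), 5 were higher and 6 were neither, and on the TMM scale 0 were lower and 6 higher. Among its genes with at least 50 UMIs, the 4 with the largest log2 differences (CPM + 10) were Cd274 (PD-L1), at 30.3 and 130 CPM, and the guanylate-binding proteins Gbp4, at 16.5 and 43.4 CPM, Gbp9, at 7.69 and 18.3 CPM, and Gbp8, at 8.36 and 19 CPM.

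**Figure D2:**
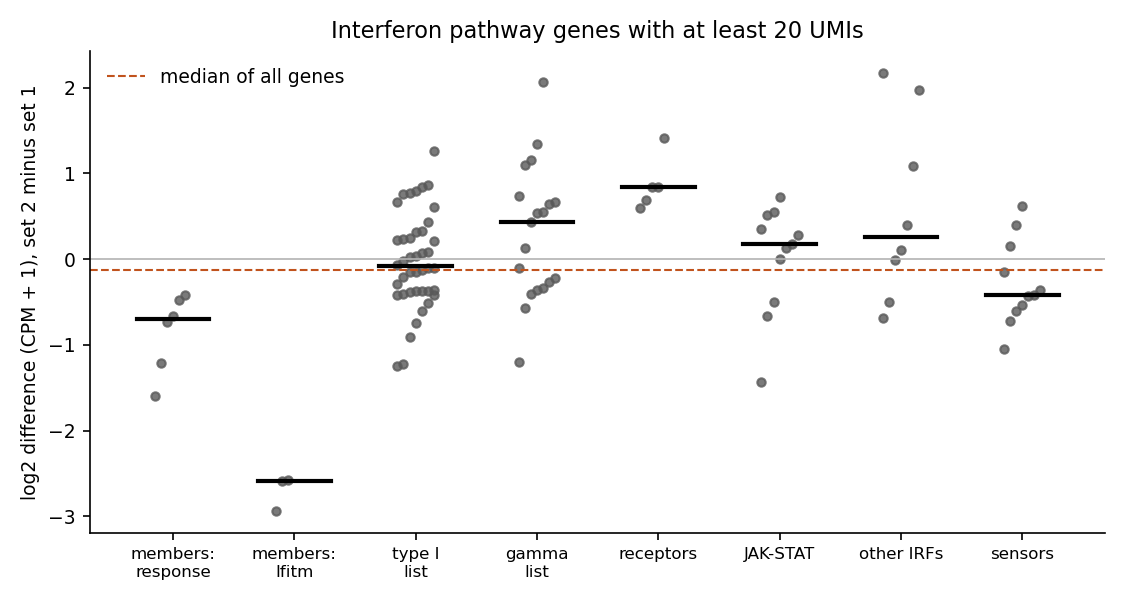
Difference between the sets, set 2 minus set 1 in log2 (CPM + 1), for each gene with at least 20 UMIs (points) in the 2 groups of members and 6 lists of pathway genes, with each group's median as a black bar and the median of all genes, -0.13, as a dashed line. The 9 members lie below 0, while the receptors lie above 0 with a median of 0.84.

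RNA of other skin cells moved with the members between the sets, and its part in their levels was not tested. The keratin Krt14 was at 51.2 CPM in set 1 against 2.05 CPM in set 2, and the collagen Col3a1 at 31.1 and 0.444 CPM. By the 1.5-fold rule, 4 of 4 fibroblast genes, 7 of 9 keratinocyte genes and 4 of 5 mast cell genes with at least 100 UMIs were lower in set 2. Of all genes 22.8% were. The summed keratinocyte list was at 286 and 260 CPM, and the summed erythroid list was higher in set 2, at 127 and 210 CPM. Of the myeloid genes Lyz2 had 5 UMIs in set 1 and 3 in set 2. No cell type known to lack the 9 genes was available for a background share.

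Cells were clustered with the interferon and Ifitm genes left out, which gave 8 clusters, most of them from 1 set. In the 4 clusters with at least 50 cells of set 1 (clusters 0, 1, 2 and 3), Ifitm2 lay between 10.8 and 287 CPM, Isg15 between 34.6 and 160 CPM and Ifitm3 between 10.5 and 35.9 CPM. Genes of other skin cells varied over the same clusters by different amounts. Krt14 lay between 40.2 and 66.4 CPM, while the mast cell gene Cma1 lay between 19 and 207 CPM, highest in cluster 3 like Ifitm2 and Isg15. Over single thinned cells of set 1, the variance divided by the mean was 11 for Isg15, 8.30 for Ifitm2, 12 for Ifitm1, 2.77 for Bst2 and 1.65 for Ifitm3. Among genes of other cells it was 1.72 for Krt14 and 1.86 for Col3a1, but 8.03 for the endothelial gene Cldn5, 60.4 for Cma1 and 257 for the globin Hbb-bs. Of the UMIs of Cma1 in set 1, 44.4% were in 1 cell, and of those of Hbb-bs 67.9%.

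Cluster 3 held 200 cells of set 1 and 103 of set 2. It was led by Tyrobp and Fcer1g, adaptors of activating receptors, and by the cytokine gene Il22. Of its 103 cells of set 2, 1 had an Il22 UMI. The cluster carried the highest level in set 1 of Isg15, Bst2, Irf7, Rtp4 and the 3 Ifitm members. Some of these levels rested on few cells. Of the 200 cells, 18 held 229 of the 268 Isg15 UMIs, and 6 held 98 of the 107 Ifitm1 UMIs. Without thinning Isg15 was in 24.0% of the 200 cells, beside 38.3% of the set 1 cells of cluster 2. In its cells of set 1 Ifitm2 reached 287 CPM (262 to 314), against 21.5 CPM in cluster 0, 10.8 CPM in cluster 1 and 26.0 CPM in cluster 2. The cluster thus held 59.3% of all Ifitm2 UMIs of set 1, a value chosen after the clusters were seen, and 107 of the 124 Ifitm1 UMIs. Bst2 was at 192 CPM there against 56.1 to 96.2 CPM in the other 3 clusters, and Isg15 at 160 CPM against 34.6 to 84.2 CPM. Ifitm3 was at 35.9 CPM. Col3a1 was also highest there, at 55.6 CPM against 23.5 to 35.2 CPM. Ifi27l2a and Ifit3 were instead highest in cluster 1, led by G0s2 and Cand2, with 21.7 CPM and with 11 of 26 UMIs.

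In set 2 the highest Ifitm levels lay in another cluster. Cluster 7, with 82 cells of set 2 led by Il1rl1, Klrg1 and Il5, genes of group 2 innate lymphoid cells, held Ifitm2 at 76.6 CPM (53.9 to 106) and Ifitm3 at 16.6 CPM (7.15 to 32.6). These levels rested on few cells: Ifitm2 was in 12 of the 82, with 29 of its 37 UMIs in 5 cells, and Ifitm3 had 8 UMIs in 5 cells. In cluster 6, with 2130 cells the main body of set 2, Ifitm2 was at 4.74 CPM and Ifitm3 at 0.862 CPM. In cluster 4, with 975 cells, both were at 1.73 CPM. Isg15 and Bst2 differed less over these clusters, at 31.7 to 47.3 CPM and at 41.3 to 66.2 CPM. Cluster 5, with 75 cells and a median of 1142 UMIs, had no UMI of either gene, with an exact Poisson upper bound of 39.6 CPM.

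**Figure D3:**
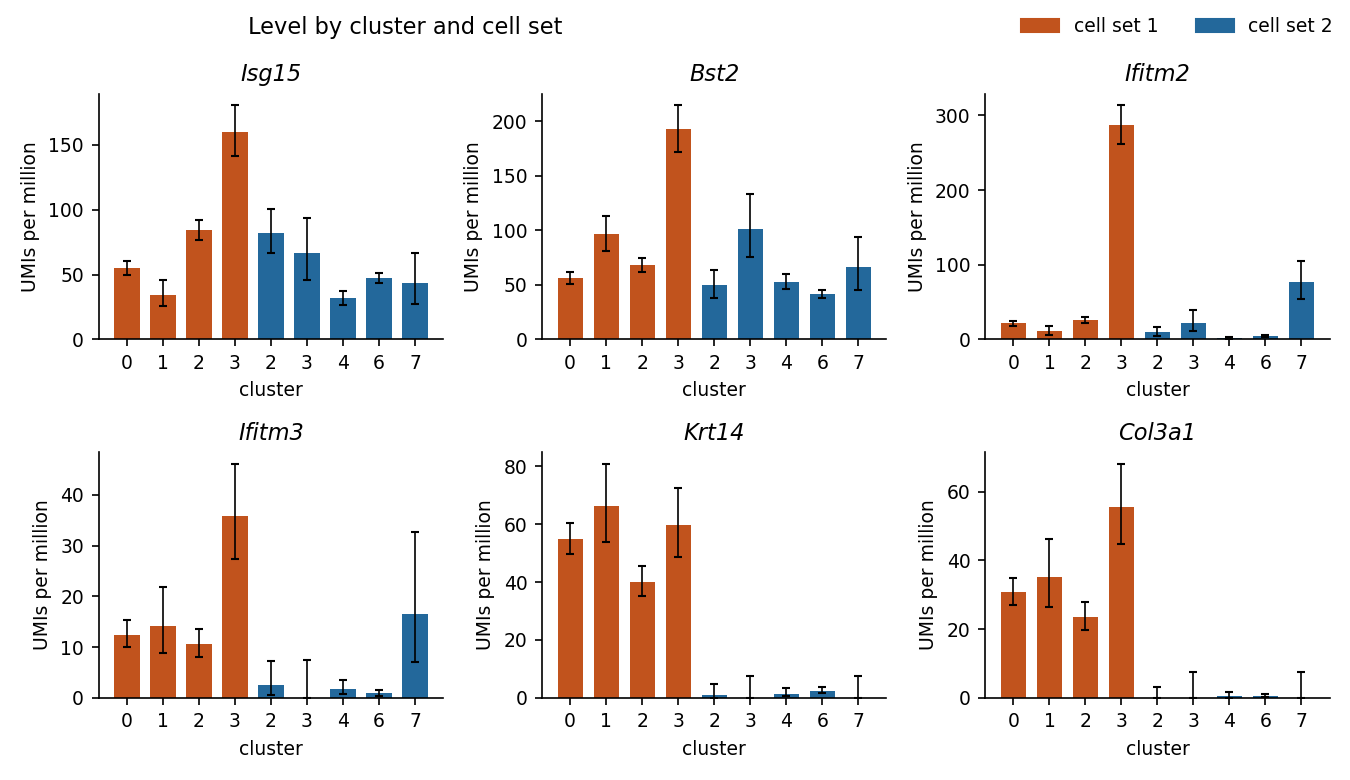
Level by cluster and set, in CPM, of 4 of the 9 genes and of Krt14 and Col3a1, with 95% counting intervals as bars. Clusters with at least 50 cells of a set are drawn, without the 75 low-UMI cells of cluster 5. Ifitm2 stands at 287 in cluster 3 of set 1 and at 76.6 in cluster 7 of set 2, while Krt14 lies between 40.2 and 66.4 in every cluster of set 1.

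Clusters 2 and 3 held enough cells of both sets to set them side by side. In cluster 2, whose leading genes are those of dividing cells, Isg15 was at 84.2 CPM in set 1 against 82.3 CPM in set 2, a ratio of 1.02 (0.823 to 1.29). Bst2 had a ratio of 1.37 (1.04 to 1.84) there, Ifitm2 2.81 (1.53 to 5.76) and Ifitm3 4.18 (1.36 to 20.8), the last on 60 and 3 UMIs. In cluster 3 the ratio was 2.40 (1.67 to 3.56) for Isg15, 1.90 (1.41 to 2.62) for Bst2 and 12.9 (7.14 to 26.0) for Ifitm2. Ifitm3 had 60 UMIs in set 1 and 0 in set 2 of that cluster, at least 5.91-fold higher against a floor of 3 UMIs. Krt14 and Col3a1 were higher in set 1 within both clusters too, at 40.2 and 0.839 CPM for Krt14 in cluster 2 and at 100 and 0 UMIs in cluster 3. The 2 sets differed within cluster 3 in its leading genes too. Without thinning, 53.0% of its set 1 cells had a Tyrobp UMI, beside 11.7% of its set 2 cells. Il22 was found in 47 of 200 and 1 of 103. Fcer1g differed little in level, with a ratio of 1.10 (0.975 to 1.25). Leiden resolution 1 gave a cluster led by Tyrobp, with 152 and 37 cells of sets 1 and 2. A separate cluster with Il17a and Cd3e among its leading genes held 49 and 65. Whether the set or the mix of cells within a cluster goes with the ratios of the members cannot be told apart.

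Levels were also set side by side in cells of either sex, since the sets hold cells with Xist and cells with Y-linked RNA. In cells with Xist and no Y-linked UMI, Isg15 was at 75.2 CPM in set 1 against 41.7 CPM in set 2, and Ifitm2 at 51.6 and 7.79 CPM. In cells with Y-linked and no Xist UMI, Isg15 was at 73.8 and 48.7 CPM, and Ifitm2 at 57.2 and 8.43 CPM. Both genes were higher in set 1 in either kind of cell. Ifitm1 was uneven, at 2.06 CPM in the Xist cells and 13.5 CPM in the Y-linked cells of set 1, with 36 of its 124 UMIs in 1 cell.

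Whether the members rise together was read from pairs of genes in the thinned cells. For each pair, the number of cells with both genes was divided by the number that the product of their single shares gives. Over the 15 pairs of interferon response members in set 1, 160 joint detections were counted against 76.4 from the product, a ratio of 2.09 (1.78 to 2.45). A cell with several members adds to several pairs, so the interval is too narrow. Taking the shares within each cluster gave 2.0. In set 2 the pairs gave 103 against 78.0, a ratio of 1.32 (1.08 to 1.60). With another thinning seed set 2 gave 97 against 85.3, a ratio of 1.14, and set 1 gave 1.98. The size of the excess in set 2 thus depended on the draw.

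Among pairs with at least 5 cells from the product, the 3 pairs of Isg15, Bst2 and Irf7 all passed a ratio of 1.5 in set 1. Isg15 and Bst2 were found together in 69 cells against 42.2 from the product, a ratio of 1.64 (1.27 to 2.07). Isg15 and Irf7 were together in 17 cells, 2.22 times the product, and Bst2 and Irf7 in 25 cells, 2.23 times. That ratio was passed by 3.89% of all 23101188 gene pairs of set 1 under the same limits, whose median was 1.01. In set 2 none of 4 such pairs passed, against 3.96% of all pairs, and Isg15 and Bst2 gave 1.31 (1.00 to 1.68). All 7 thinned cells of set 1 with Ifit3 also had Bst2.

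The 3 pairs of Ifitm genes in set 1 gave 26 joint detections against 8.17, a ratio of 3.18 (2.08 to 4.66), and 2.48 with shares taken within clusters. Ifitm1 and Ifitm2 were together in 10 of the 13 thinned cells with Ifitm1. Ifitm2 and Ifitm3 were together in 15 cells against 6.34, a ratio of 2.37 (1.32 to 3.90). In set 2 no cell had more than 1 Ifitm gene, where the product gives 0.193 cells. Without thinning there were 4 joint detections against 0.556, a ratio of 7.19. Between the 2 groups of members, the 18 pairs gave 1.49 (1.24 to 1.77) in set 1 and 1.30 within clusters. Isg15 and Ifitm2 gave 1.13 (0.688 to 1.74), and Isg15 and Ifitm3 1.56 (0.892 to 2.53). Bst2 and Ifitm2 gave 1.27 (0.872 to 1.78), and Bst2 and Ifitm3 1.66 (1.08 to 2.45). Of these 4 pairs, those with at least 5 cells from the product, 2 passed 1.5, beside 3.89% of all gene pairs of set 1.

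**Figure D4:**
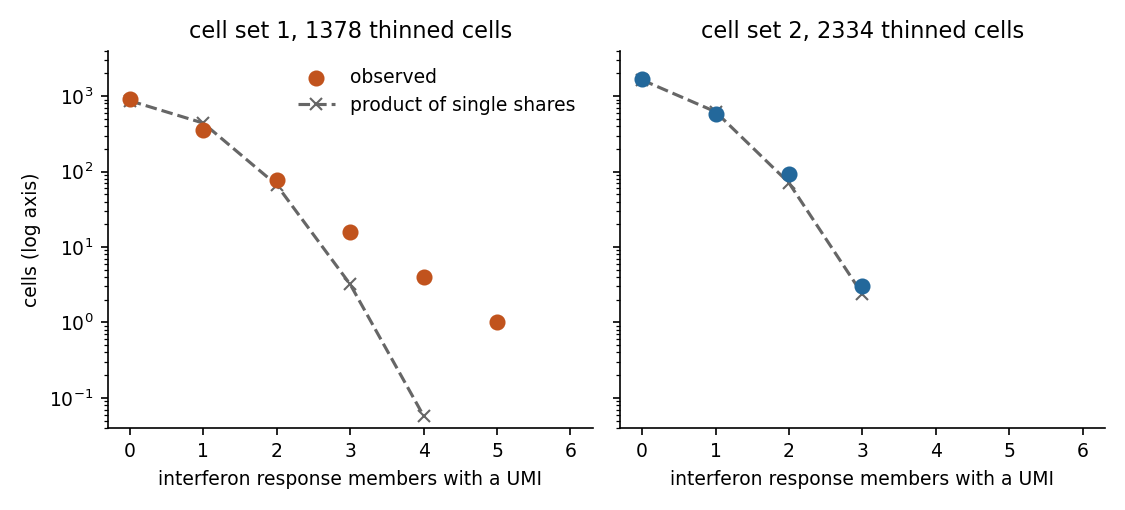
Number of thinned cells (log axis) by how many of the 6 interferon response members had a UMI, in set 1 (left, 1378 cells) and set 2 (right, 2334 cells), with the number that the product of the single shares gives as crosses and a dashed line. In set 1, 16 cells had 3 members, 4 had 4 and 1 had 5, above the dashed line, and in set 2 the 3 cells with 3 members lie near it.

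Joint detection in set 1 was concentrated in few cells. In 21 cells, 1.52% of the thinned cells, 3 or more of the 6 members had a UMI, against 3.26 cells from the product of the shares. In set 2 there were 3 such cells against 2.40. The limit of 3 was set after the levels had been seen. Just below it, 78 cells of set 1 had 2 members, and 16 of the 21 had exactly 3. The 21 cells were no deeper than the rest, with a median of 9698 UMIs against 11005. They came from 4 clusters, with 4 cells in cluster 0, 3 in cluster 1, 5 in cluster 2 and 9 in cluster 3. Of them 11 had Xist and no Y-linked UMI, 5 had Y-linked and no Xist UMI, and 5 had neither.

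Genes that had no part in choosing these cells were higher in them. Of the type I interferon list, 40 genes had at least 20 UMIs over the thinned cells, and 40 of 40 were at least 1.5-fold higher in the 21 cells than in the other 1357, with a median ratio of 11.6. Of all genes with that many UMIs, 21.8% were at least 1.5-fold higher, and the median ratio was 0.929. The minimum can be met through the 21 cells themselves, so it was also asked of the other cells alone. By that count 36 of 36 genes were higher, with a median of 10.9, beside 21.6% of all genes. The summed list stood at 1081 CPM in the lowest of the 21 cells, 4279 CPM in the median cell and 21825 CPM in the highest. The median of the other cells was 1474 CPM, below 19 of the 21. In the 99 cells with 2 or more members, 36 of 40 genes were at least 1.5-fold higher, with a median of 3.54. No share over all genes was taken for those cells, so that count has no background.

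Examples named here were chosen after their values were seen. Rsad2 (viperin), an antiviral enzyme, was at 164 CPM in the 21 cells and 3.1 CPM in the others. Ifit1, which binds viral RNA caps, had 28 UMIs in the 21 cells and 13 in the other 1357. Over all kept cells of set 1 its 42 UMIs were in 11 cells. How many of the 21 cells held each gene of either interferon list was not counted. Cmpk2, the neighbour of Rsad2 in the antiviral nucleotide pathway, was 26.6-fold higher (11.6 to 56.0), and Zbp1, a sensor of left-handed nucleic acid, 17.3-fold higher (10.9 to 26.3). The smallest ratios in the list were those of Ly6e, at 1.59 (1.39 to 1.81), and Ifi27, at 1.99 (0.946 to 3.69).

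The interferon gamma list was higher in the same cells, with 16 of 16 genes at least 1.5-fold higher and a median of 15.1. Of all genes 21.8% were at least 1.5-fold higher. Cxcl10, a chemokine that attracts T cells, was at 1655 CPM in the 21 cells and 87.0 CPM in the others, a ratio of 19 (16.8 to 21.4). Gbp4 was 15.2-fold higher and Cd274 1.80-fold, with an interval of 0.895 to 3.26. Stat2 was 7.0-fold higher (3.53 to 12.6) and Irf9 2.67-fold (1.21 to 5.15). Of the 5 receptor chains 1 was at least 1.5-fold higher, Il10rb, and 2 were at least 1.5-fold lower. Over all genes 21.8% were higher and 32% lower by that rule. Ifnar1 had a ratio of 1.09 (0.642 to 1.72) and Ifnar2 of 0.544 (0.148 to 1.40). Genes of antigen presentation were higher, with B2m at 2.44, H2-K1 at 2.57 and H2-Q7 at 5.13. Genes outside the interferon lists rose too, with Hspa1a at 2.90 (2.66 to 3.16) and Malat1 at 1.56 (1.51 to 1.62). Xcl1 did not, at 0.755 (0.302 to 1.56). Il22 was 8.50-fold and Fcer1g 4.61-fold higher, and both lead cluster 3, which held 9 of the 21 cells. Il22 was unevenly spread, with 17.4% of its UMIs of set 1 in 1 cell. How many of the 21 cells held it was not counted. Krt14 had a ratio of 0.484 (0.157 to 1.13) and Mki67, a gene of dividing cells, of 1.57 (1.22 to 2.0).

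The Ifitm genes had unlike ratios in these cells, on few and unevenly spread UMIs. In set 1, 36 of the 124 Ifitm1 UMIs were in 1 cell, and 58 cells had at least 3 Ifitm2 UMIs. The counting intervals do not cover that spread, and how many of the 21 cells held each gene was not counted. Ifitm3 was 4.66-fold higher (2.44 to 8.13) and Ifitm1 8.56-fold (4.29 to 15.6), whereas Ifitm2 had 3 UMIs in the 21 cells and a ratio of 0.298 (0.0614 to 0.875). The 21 cells held 0.372% of the Ifitm2 UMIs of the thinned cells of set 1, beside 23.3% of those of Isg15, 11.2% of Bst2, 19.3% of Irf7, 32.8% of Rtp4 and 20 of the 23 of Ifit3. Since members chose the cells, these last shares are a description.

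**Figure D5:**
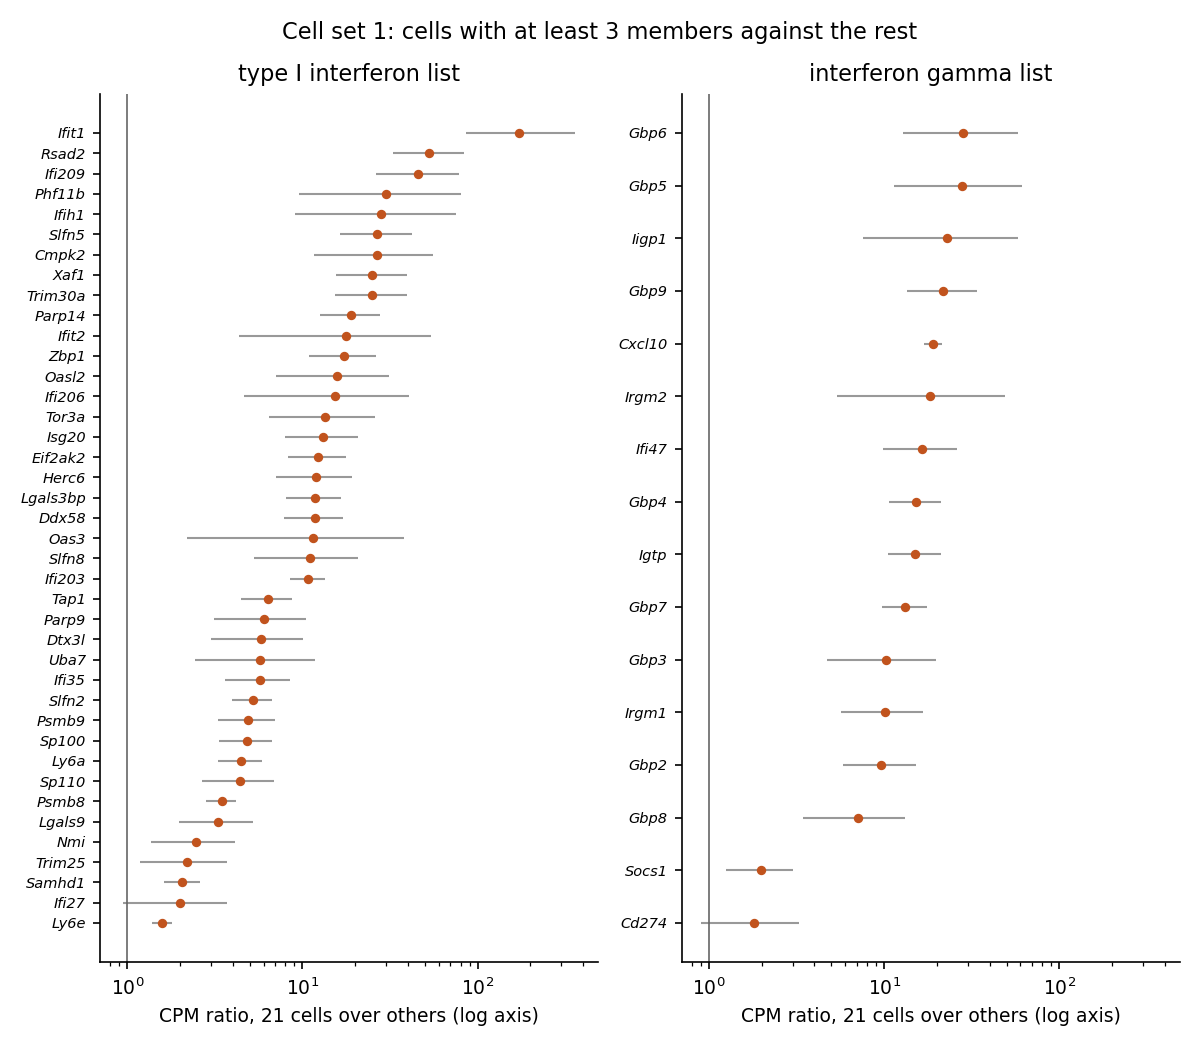
Ratio of the level in the 21 cells of set 1 with at least 3 interferon response members to the level in the other 1357 thinned cells (log axis), for genes with at least 20 UMIs in the type I interferon list (left) and the interferon gamma list (right), with 95% counting intervals as lines. All points lie right of the line at 1, from 1.59 for Ly6e to 172 for Ifit1 on the left, the latter on 28 and 13 UMIs.

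The levels were also taken with the 21 cells left out of set 1 and set 2 left whole. Since the cells were chosen for having members, leaving them out lowers the interferon response members of set 1 by construction, and the values are a description. Over the cells deep enough to be thinned, Isg15 stood at 74.3 CPM in set 1 against 44.4 CPM in set 2, a ratio of 1.67 (1.52 to 1.84). Without the 21 cells it was 57.7 CPM and the ratio 1.30 (1.17 to 1.44), under the 1.5 that calls a gene. Irf7 went from 1.38 to 1.13 (0.868 to 1.47) and Ifi27l2a from 1.11 to 0.920 (0.667 to 1.27). Bst2 went from 1.70 to 1.53 (1.39 to 1.68). The Ifitm ratios moved little, from 6.76 to 6.82 for Ifitm2 and from 10.6 to 10.1 for Ifitm3.

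The genes most like the members across cells differed between the 2 groups. Likeness was the Pearson correlation, over 1378 thinned cells of set 1 and 9747 genes, of log counts with the summed members. It is a description, since all genes of a cell share its library and depth. For the interferon response members the highest values were those of B2m, the light chain of class I molecules, at 0.287, Cxcl10 at 0.275, Ifi203 at 0.239, H2-D1 at 0.237 and H2-Q7 at 0.231. Then came Psmb8, H2-K1, Gbp7, Igtp and Gbp4, down to 0.206. All but B2m and the 3 H2 genes are in the 2 interferon lists. For the Ifitm members the highest were Klrd1, a receptor chain of natural killer cells, at 0.464, the chemokine Xcl1 at 0.451, Tyrobp at 0.435, Ctsw at 0.427 and Trat1 at 0.416. Fcer1g, Avil, Klrb1b, Cd160 and Nrgn followed, down to 0.230, and none of the 10 is in an interferon list. In set 2 no gene passed 0.126 for the interferon response members, with B2m again first, or 0.188 for the Ifitm members, with Il1rl1 and Lgals3 first. Such values in sparse counts are not a finding.

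The level of Ifitm2 restates this in plain counts for companions picked from that ranking, and is not separate support. In the 32 cells of set 1 with a Klrd1 UMI it was at 847 CPM, and in the other cells at 32.4 CPM. It was at 248 CPM in the 215 cells with Fcer1g and at 19 CPM in the rest. Of the 58 cells of set 1 with at least 3 Ifitm2 UMIs, 27 lay in cluster 3, and these held 445 of the 809 Ifitm2 UMIs of the set. Fcer1g was found in 58.6% of the 58 cells and in 13.1% of the others, and Cd3e, a T cell receptor chain, in 1.72% and 5.21%. Depth moved with this split, with a median of 12250 UMIs in the 58 cells and 10636 in the others, and its part was not tested. In set 2 there were 9 such cells, 5 of them in cluster 7.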

How the data were processed

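Single-cell RNA was measured in skin innate lymphoid cells with 1 library for each of 2 postnatal days. The authors deposited 1 table of UMI counts per gene symbol and cell, whole numbers that are not scaled. The submitters' processing notes name Cell Ranger 3.1.0, Seurat 4.1.0 and the mm10 build, while settings were not stated in the sources used here. Of 5246 deposited cells, 297 with over 10% mitochondrial UMIs were left out, leaving totals of 16514632 UMIs in set 1 and 18026148 in set 2. No deposited cell had fewer than 211 genes. The 2 sets shared 4 cell barcodes. No doublet caller was run, and levels were also taken without the 1% of cells of each set with the most UMIs.

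UMIs were summed per set and per cluster and given as CPM, with exact Poisson intervals for levels, exact binomial intervals for shares and exact conditional intervals for ratios. Cells were clustered with scanpy 1.11.5 (2000 variable genes, 30 components, 15 neighbours, Leiden resolution 0.5), and thinning used 1 fixed seed. TMM factors came from edgeR 4.0.16 in R 4.3.3, with no edgeR test run. Sums, ratio calls and joint detection were tested on simulated data. Gene positions are from GENCODE (GRCm38), and promoter windows from RefSeq. A floor of 3 UMIs was used against a level of 0.

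The members, gene lists and rules were chosen with earlier results of these data known. Genes named beside the members were the up to 4 of each list with the largest absolute log2 difference (CPM + 10) among those with at least 50 UMIs, core genes of the pathway (Ifnar1, Ifnar2, Stat2 and Irf9 among them; 1 is not reported here), and the 10 genes most like each group of members. Others named were chosen after their values were seen. Alternatives were TMM and median-of-ratios scaling, other mitochondrial limits, thinning, other pseudocounts and minimums, subsets of cells and other clusterings.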

Additional observations from a re-analysis of the deposited data

How the results depend on the processing

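Every member was lower in set 2 in 12 of 12 settings except Ifi27l2a, which was lower in 11 and reversed in cells with Xist and no Y-linked UMI (0.32 against -0.41 on the log2 scale). The number of members called lower in set 2 was 5, and 3 at a ratio of at least 2. The median of the interferon response members, -0.70, became -0.54 with TMM scaling, -0.88 in thinned cells, -0.83 in cells with Xist and no Y-linked UMI, -0.32 with CPM + 10 and -0.31 without the cells of either set with 3 or more members, a removal that lowers these members by construction. That of the Ifitm members, -2.59, became -2.98 in thinned cells and -1.08 with CPM + 10. Joint detection of the interferon response members in set 1, 2.09, became 2.80 at 2000 UMIs and 1.62 without thinning. In set 2 the 1.32 became 1.75 at 2000 UMIs and 1.14 with another thinning seed. That of the Ifitm members in set 1, 3.18, became 1.81 without thinning. The median of the type I list in the 21 cells, 11.6, became 3.54 in the 99 cells with 2 or more members, and with another thinning seed, which picked 26 cells, it was 8.64. The cause of these shifts was not tested. In all, 79 of 92 alternative values for the main results moved by less than their counting interval, or by less than 1.5 times for counts of genes. Some of the 92 could hardly move. The number of members called higher was 0 in every setting. For the Ifitm pairs of set 2 the interval ran from 0 to 19.1, which holds the 7.19 found without thinning. The intervals for log2 values were put on the CPM + 1 scale after a first labelling had been seen. Every alternative listed at the outset was run. Some were chosen after seeing the data, among them all those on the 21 cells, the stricter minimum in the other cells and the removal of cells with 3 or more members. No paired analysis was possible because each set is 1 library with no replicate number.

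The data hold 1 library per day and no label that ties a set to a day. Counting intervals do not cover differences between animals or preparations. Ifit3, Rtp4 and Ifitm1 rest on few cells. Cells of set 1 had more UMIs, and most clusters come from 1 set, so cluster and library cannot be told apart. Joint detection in set 2 rested on few cells for Ifit3 and the Ifitm genes, which at most 45 thinned cells carried.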
